A study of Chlorella sp. HS2 with 12 samples.

Results

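Flagellar, dynein, kinesin and tubulin genes of Chlorella sp. HS2, a green alga, were described in cultures with and without added sea salt. The genes were those whose best protein match in the authors' Blast2GO table, at an E-value of at most 1e-10, carried a name containing flagell, cilia, intraflagellar, dynein, radial spoke, tubulin, kinesin, basal body, centriol or axonem, and which had at least 15 counts summed over the 6 freshwater libraries and at least 15 over the 6 marine ones. The rule returned 67 genes of the 57640 in the count table. In 3 of them the letters matched only a species name, Cenchrus ciliaris, and their product was a glucose-6-phosphate 1-epimerase, so 64 genes remained. Of these, 61 had enough counts in enough libraries to be tested and 3 did not.

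The alga was grown in photobioreactors with 5% CO2, either in freshwater medium or in marine medium, to which 3% (w/v) sea salt was added. Cells were taken in the exponential phase at 4 days and in the stationary phase at 6 days, which gives 4 groups of 3 libraries. All 4 groups share 1 strain, and growth phase and age of the culture cannot be told apart. The design describes the replicates as biological.

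A flagellum is built on an axoneme, a cylinder of microtubules made of alpha- and beta-tubulin, that grows from a basal body. Dynein arms bend the axoneme, radial spokes and the nexin-dynein regulatory complex control the arms, and intraflagellar transport trains, driven by kinesin-II and dynein, carry the parts to the tip. Chlorella is known as a green alga that does not swim, yet tubulins, their folding cofactors, the gamma-tubulin complex and many kinesins also serve the spindle and the microtubules of the cell body.

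The libraries held 9378066 to 11280635 expected counts each. The codes of marine exponential replicates 1, 2 and 3 share a stem, as do those of marine stationary replicates 1 and 2, and marine stationary replicate 3 has a stem of its own. Libraries of 1 stem differed from each other by a median of 0.165 to 0.223 on the log2 scale over genes, freshwater replicates by 0.342 to 0.450, and marine stationary replicates 1 and 2 from replicate 3 by 0.603 and 0.608. Whether libraries of 1 stem came from separate cultures is not given in the sources used here. If they did not, p-values of every comparison measure in part a technical spread and are too small. Those of the freshwater phases are included, because all 4 groups share 1 estimate of the spread. Counts of calls are therefore given also from a fit in which libraries of 1 stem were summed. A further fit, on counts summed over the genes of each assembly component, is given where it ended a call, turned a direction or moved a value by over 1.5 times. For 26 of the 64 genes the component holds 1 gene only. There the summing added no reads, and a change reflects only the scaling, spread and tested set of that fit.

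Genes matching marker proteins of other organisms were detected beside those of green algae. Levels are given in CPM, counts as parts of 1000000 counts of the library's size after scaling between libraries (TMM). For the 26 bacterial marker genes, the summed level was 550 to 671 CPM in freshwater exponential libraries and 367 to 460 in freshwater stationary. It was 149 to 152 in marine exponential libraries and 183 to 217 in marine stationary ones. In the whole group, 19, 19, 11 and 3 of the 26 were at 0. The 19 animal markers summed to 511 to 917, 387 to 474, 303 to 388 and 213 to 446 CPM in the same order, with 8, 8, 12 and 12 at 0. The 4 fungal markers summed to 104 to 537 CPM over all libraries, and the 3 of ciliates and flagellated protists were at 0 in every marine exponential library and reached 94.5 CPM in the freshwater exponential phase. The 36 markers of green algae summed to 121177 to 138969, 4162 to 6754, 3655 to 4077 and 5043 to 6590 CPM. The part of other organisms in the results below was not tested.

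The count minimum removed most genes of these names. Of the 446 genes with such a product, 322 reached 15 counts in freshwater only, 24 in marine medium only and 36 in neither. The best match of 200 of the 322 freshwater-only genes was an animal protein, of 85 a green algal one, of 19 a land plant one and of 8 a ciliate one, and 178 of them were dynein chains, 46 kinesins and 26 intraflagellar transport proteins. Together the 322 summed to 123, 145 and 310 CPM in the 3 freshwater exponential libraries and to 1392, 954 and 549 CPM in the 3 stationary ones. In the 6 marine libraries they were listed at 0, except for 1.05 CPM in marine exponential replicate 2. Of the 24 marine-only genes, 12 matched bacterial proteins and 10 of the 24 were parts of the bacterial flagellum, which is unrelated to the eukaryotic one. At the limit of the rule, an outer arm dynein alpha chain (DN2121_c1_g3; assembled genes carry the prefix TRINITY_) was just inside, with 17.15 freshwater and 57.8 marine counts, and a gamma-1 tubulin (DN37725_c0_g1) was just outside, with 22.69 and 12.92.

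**Figure D1:**
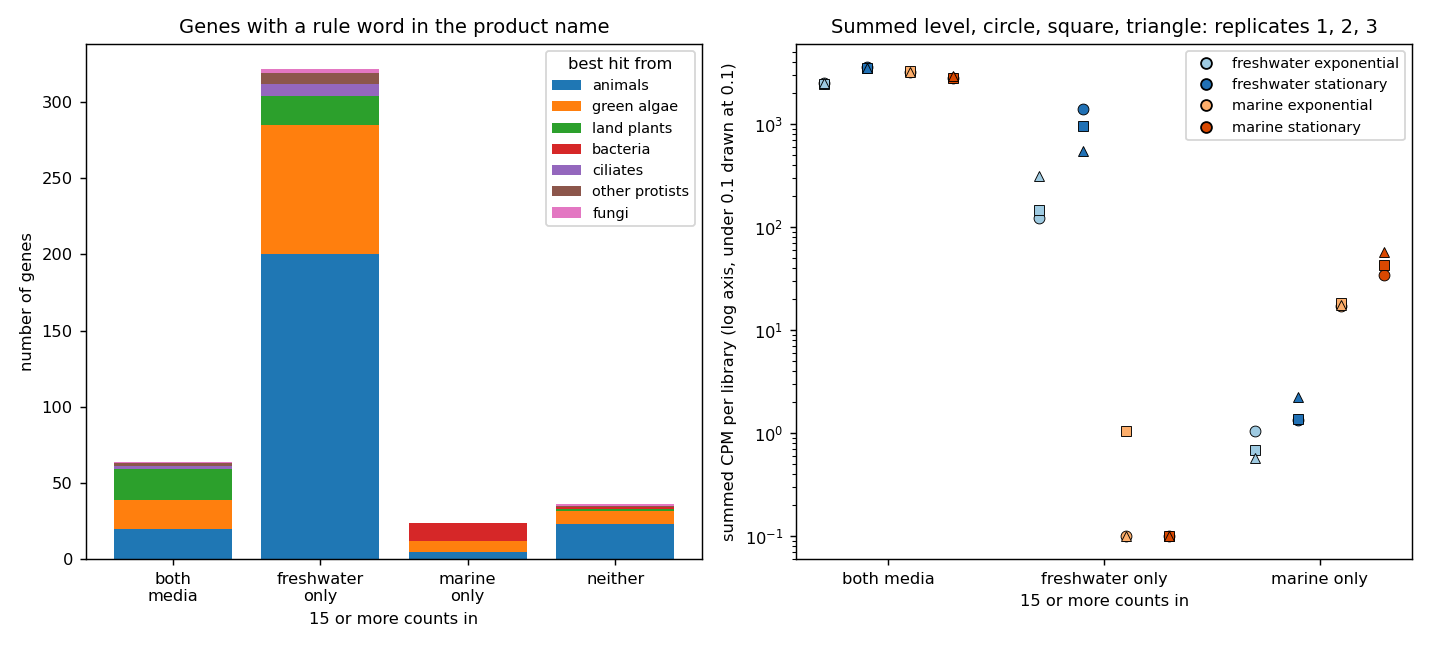
Genes of the 446 with a flagellar, dynein, kinesin, tubulin or centriole name, by the media in which they reach 15 counts. The bars count the genes by the lineage of their best match, and the points give the summed CPM of each set in each of the 12 libraries; the 322 freshwater-only genes reach 1392 CPM in freshwater stationary replicate 1 and at most 1.05 CPM in any marine library.

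Among the 64 genes, the best match was an animal protein for 20, a land plant one for 20, a green algal one for 19, a ciliate one for 2, one of other protists for 2 and a fungal one for 1. The median similarity to the match was 67.5%, against 66.0% for the freshwater-only genes. In 6 genes the match was to an animal protein at a similarity of 95% or more. Of these 6 genes, 3 had enough counts in too few libraries for a test, and the other 3 passed no test in any comparison. The untested ones were a cytoplasmic dynein 1 heavy chain (DN39799_c0_g1), a kinesin light chain 1 (DN59259_c0_g1) and a beta-7 tubulin (DN13485_c1_g1). The authors' deposited table lists the heavy chain at a mean signal of 251 in freshwater exponential and 62.3 in marine stationary libraries. In freshwater stationary and marine exponential libraries it is at 0.

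The assembled genes were 231 to 19072 bases long, with a median of 3797.5, and 29 of 64 were over 5000 bases. The authors' annotation report held 37 of the 64. In 32 of the 37 a Pfam protein domain of the named role was recorded, among them kinesin domains in 14 of 14 kinesins. In 18 of the 37 a domain of another kind was recorded on another reading frame, and the counts of such a gene cannot be told apart by frame. The alpha-tubulin DN517_c0_g1 matched a Chlorella vulgaris chain at 94.9% identity in that report, and the beta-tubulin DN3237_c0_g1 a green algal chain at 91.5%, while their Blast2GO matches were a brown algal and a ciliate chain. The gene with the name of the 78 kDa dynein intermediate chain (DN2109_c0_g1) carried only a porin domain there and no dynein domain, and its best match in that report was a mitochondrial outer membrane channel.

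Per kilobase of assembled gene and averaged over the 12 libraries, the highest level was that of outer dynein arm protein 1 (DN2194_c0_g4), at 382 CPM per kilobase. Alpha-tubulin (DN517_c0_g1) followed at 69.2 CPM per kilobase, the kinesin KIN-14E (DN2318_c0_g4) at 56.2 and beta-tubulin (DN3237_c0_g1) at 51.1, and the median gene was at 2.88. The summed level of all 64 genes was 2498 ± 34.5 CPM in the freshwater exponential group, 3517 ± 25.6 in freshwater stationary, 3228 ± 55.4 in marine exponential libraries and 2843 ± 81.2 in marine stationary (SD, n = 3). In bulk RNA, fewer cells of a type and less RNA per cell cannot be told apart.

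In freshwater, genes of these names were more often higher in the stationary than in the exponential phase. Of 61 tested, 15 were higher and 3 lower at an adjusted p under 0.05, by edgeR's quasi-likelihood test with Benjamini-Hochberg adjustment over all genes. That is 29.5%, against 10.9% of all tested genes, 6.46% higher and 4.42% lower, and 14.9% of tested genes with 15 counts in both media. The median change was 0.23 on the log2 scale, against 0.27 over all tested genes and 0.27 over those with 15 counts in both media. The axonemal light chain DNAL4, the dynein regulatory complex protein DRC11, the polyglutamylase TTLL6, the gamma-tubulin complex component GCP4 and the folding cofactor TBCB rose the most among the genes whose call held in all 12 fits that left out 1 library. In all, 8 of the 18 calls held in every such fit, 6 of them higher and 2 lower, and 5 of the 18 when libraries of 1 stem were summed. Fits without 1 library tested 37962 to 41585 genes and the fit with stems summed 51469, against 31491 in the fit of all 12 libraries. They also estimated the spread anew, so a lost call need not rest on the library left out. The fit with stems summed called 1.72% of all genes for phase in freshwater.

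In marine medium, 0 of the genes were higher and 6 were lower in the stationary phase, or 9.84% against 1.63% of all tested genes, 0.311% higher and 1.32% lower, and 2.32% of tested genes with 15 counts in both media. These were 4 kinesins, the radial spoke protein RSPH1 and an outer arm dynein beta chain. The median change was -0.15 on the log2 scale, against 0.01 over all tested genes and 0.17 over those with 15 counts in both media. At an unadjusted p under 0.05 there were 18 of 61, beside 12.3% of all tested genes. None of the 6 calls held in all 12 fits without 1 library, and 0 of 6 remained with stems summed, a fit in which edgeR called 0 genes of the whole table and all 6 kept an unadjusted p under 0.05. DESeq2 called 11 of the genes, and 8.8% of all genes it tested (1723 of 19575).

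Sea salt went with higher levels more often than lower ones in the exponential phase, and the reverse in the stationary phase. In the exponential phase 18 genes were higher in marine medium and 5 lower, or 37.7%, beside 20.1% of all tested genes, 9.3% higher and 10.8% lower, and 21.1% of those with 15 counts in both media. In the stationary phase 7 were higher and 18 lower, or 41.0%, beside 26.3%, 9.02% higher and 17.3% lower, and 20.4%. Of the 21521 tested genes with 15 counts in both media, 2527 were higher and 2004 lower in the exponential phase, and 1918 and 2473 in the stationary phase. The median change with salt was 0.29 in the exponential and -0.32 in the stationary phase on the log2 scale. It was 0.00 and 0.23 over all tested genes and 0.16 and 0.31 over those with 15 counts in both media. Because the rule asked for counts in both media, these counts are a description. In the exponential phase 9 of the 23 calls held without any 1 library and 3 with stems summed, and in the stationary phase 11 of 25 and 3 of 25. The fit with stems summed called 1.72% and 3.36% of all genes in these comparisons. With marine stationary replicate 3 left out, 19 of the 25 stationary calls remained.

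The difference between these salt effects, tested as an interaction, was called in 15 of 61 genes, 14 of them with a lower salt effect in the stationary phase and 1 with a higher one. That is 24.6%, against 7.17% of all tested genes, 2.38% higher and 4.79% lower, and 10.4% of those with 15 counts in both media. With median-ratio scaling in place of TMM, 9 were lower and 2 higher. The median difference was -0.79 on the log2 scale, against -0.30 over all tested genes. Of the 21521 tested genes with 15 counts in both media, 742 were called higher and 1502 lower, with a median of -0.13. DRC11, DNAL4, RSPH1 and TTLL6 were the 4 whose call held in all 12 fits without 1 library, and of these RSPH1 and TTLL6 lost it when components were summed. With stems summed 0 of the 15 were called, 11 had an unadjusted p under 0.05, and edgeR called 55 genes of the whole table. The salt, phase and interaction comparisons share groups of libraries, so each comparison's own values are given side by side below.

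**Figure D2:**
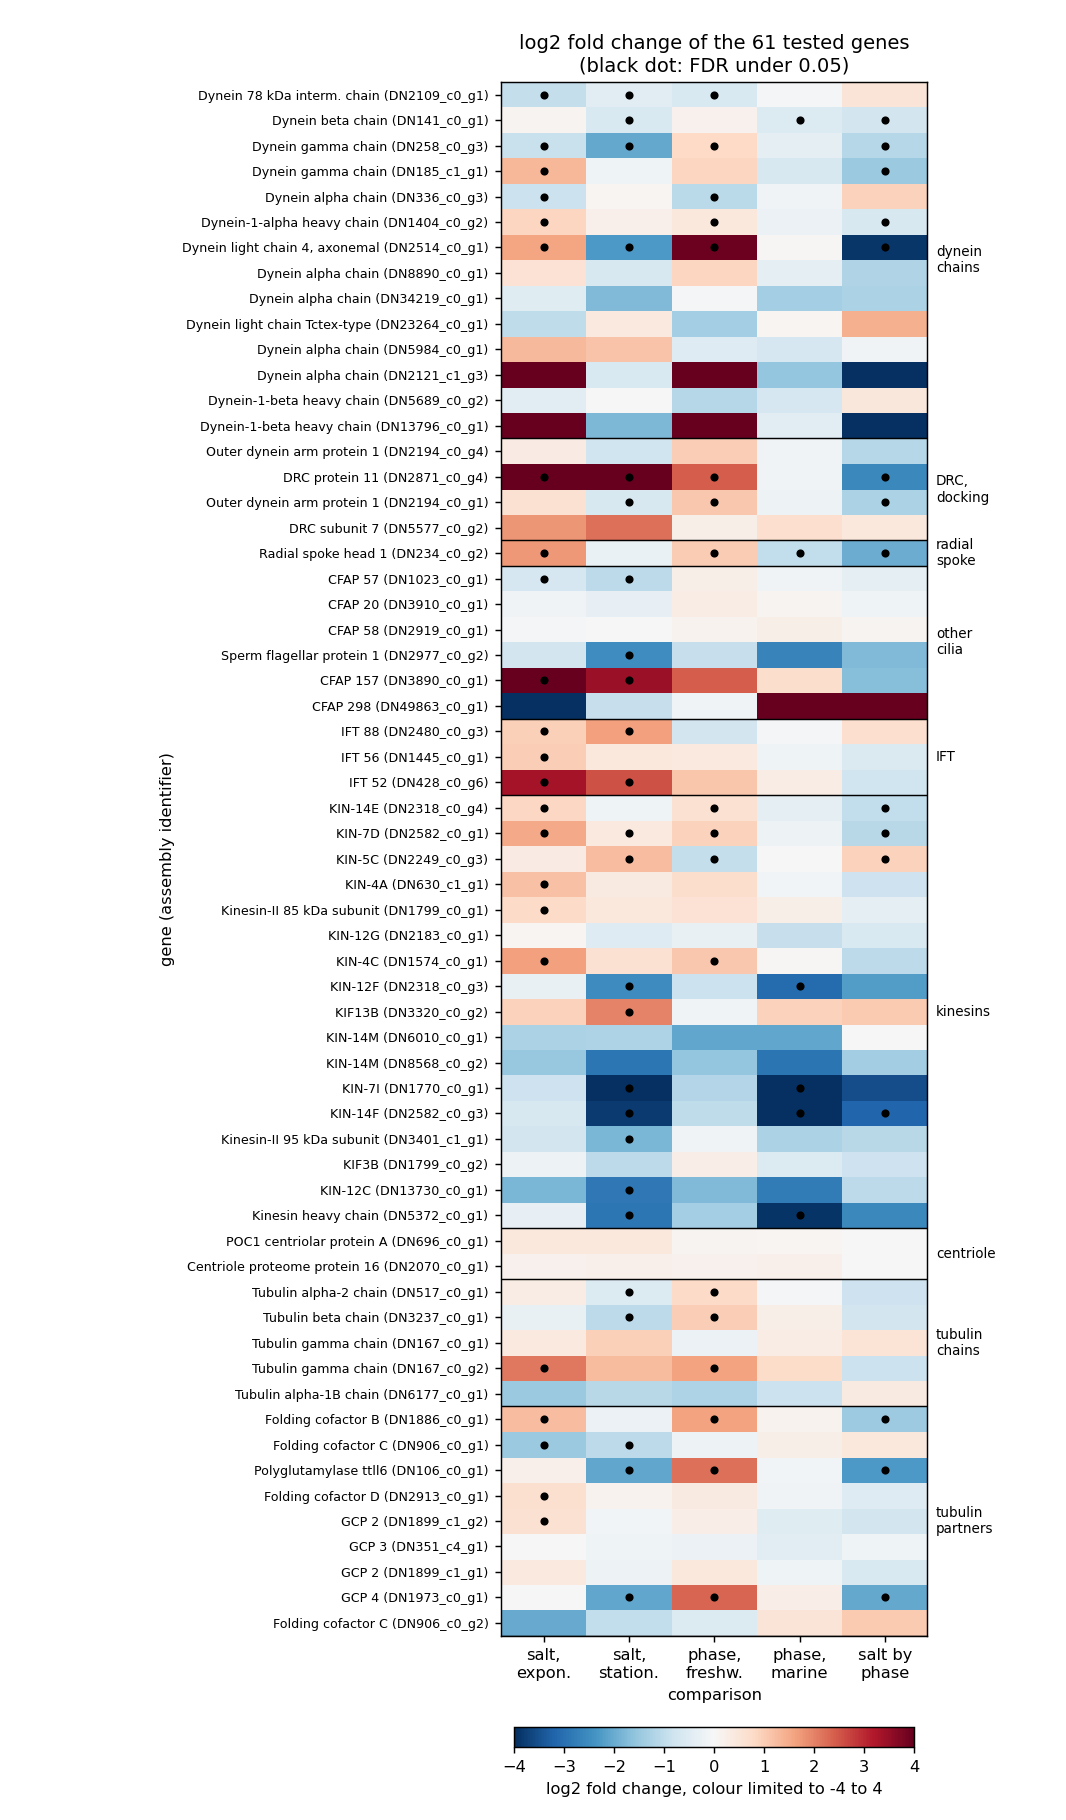
Log2 fold changes of the 61 tested genes in the 5 comparisons, grouped by role. Colour gives the fitted log2 fold change and a black dot an adjusted p under 0.05 (edgeR); the dots number 23, 25, 18, 6 and 15 for salt in the exponential phase, salt in the stationary phase, phase in freshwater, phase in marine medium and the difference of the salt effects.

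**Figure D3:**
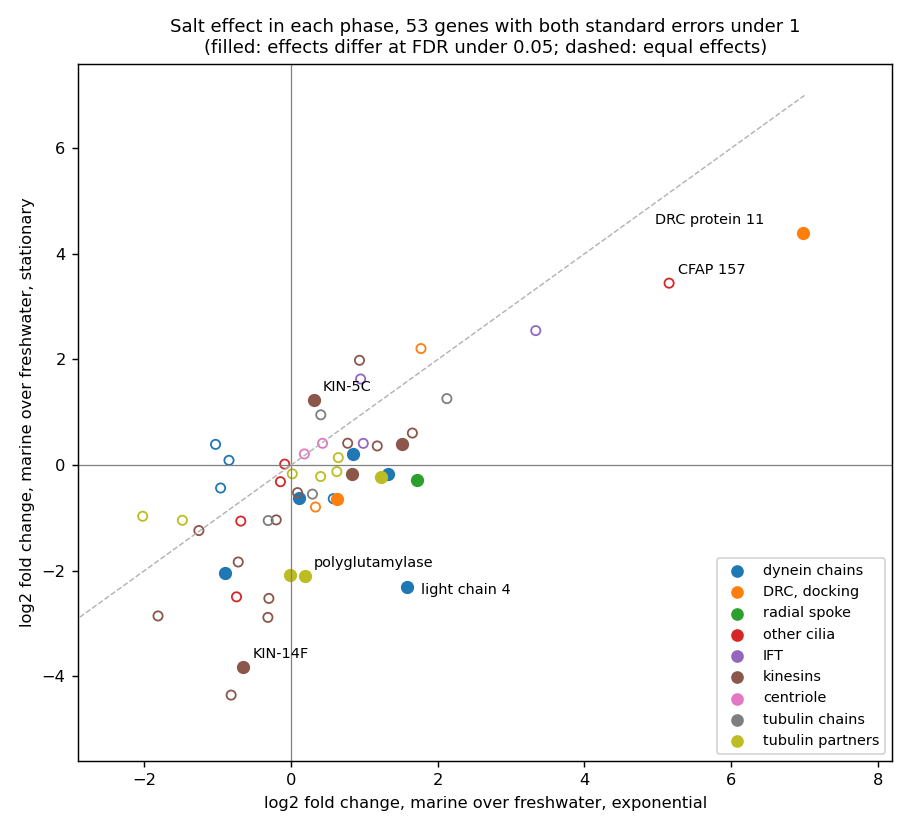
Salt effect in the stationary phase against that in the exponential phase for the 53 genes with both standard errors under 1, on the log2 scale. Genes below the diagonal have a lower salt effect in the stationary phase; DRC11 is far above 0 in both phases, while DNAL4 is above 0 in the exponential and below 0 in the stationary phase. Both axes come from separate pairs of groups.

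The outer dynein arm, the main motor of the flagellar beat, was represented by alpha, beta and gamma heavy chains. The gamma chain DN258_c0_g3 was at 130, 130 and 129 CPM in the freshwater exponential libraries, 206, 258 and 218 CPM in freshwater stationary, 68.3, 69.6 and 70.9 in marine exponential libraries and 60.3, 61.2 and 43.0 in marine stationary. Every freshwater library was above every marine one, and the freshwater stationary group was the highest. The log2 change with salt was -0.90 ± 0.14 (SE; adjusted p = 0.00122) in the exponential and -2.05 ± 0.15 (adjusted p = 8.22e-06) in the stationary phase, and the latter held with stems summed (adjusted p = 0.00869). The rise in freshwater, 0.81 ± 0.14 (adjusted p = 0.00388), and the interaction, -1.15 ± 0.20 (adjusted p = 0.00577), were each lost in 8 of the 12 fits without 1 library. Summed with the other genes of its assembly component, the change with salt turned to 0.38 in the exponential phase (adjusted p = 0.111) and was -0.84 in the stationary phase (adjusted p = 0.00342).

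The second gamma chain, DN185_c1_g1, followed another order. It was at 24.6, 45.7 and 52.1 CPM in freshwater exponential, 51.7, 98.2 and 69.9 in freshwater stationary, 99.9, 105 and 101 in marine exponential libraries and 67.0, 67.5 and 60.8 in marine stationary ones. The marine exponential libraries lay above all others, and the freshwater stationary group overlapped both the freshwater exponential and the marine stationary one. Salt raised it by 1.32 ± 0.28 in the exponential phase (adjusted p = 0.00735), a call lost in 6 of 12 fits without 1 library. The interaction of -1.49 ± 0.39 (adjusted p = 0.0464) was lost in 11 of them. It was also lost with components summed (adjusted p = 0.154), although this gene is alone in its component.

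The outer arm beta chain DN141_c0_g1 was at 156, 156 and 139 CPM in freshwater exponential, 171, 175 and 162 in freshwater stationary, 161, 162 and 165 in marine exponential libraries and 102, 108 and 122 in marine stationary ones. The marine stationary libraries lay below all 9 others. Its change with salt in the stationary phase was -0.62 ± 0.10 (adjusted p = 0.00128) and held without any 1 library. The fall between the marine phases, -0.56 ± 0.10 (adjusted p = 0.0207), and the interaction, -0.73 ± 0.14 (adjusted p = 0.00893), were lost in 8 and 9 of 12. With components summed the interaction was -0.39 (adjusted p = 0.123), although this gene is alone in its component.

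An outer arm alpha chain (DN336_c0_g3) was at 69.7 ± 15.4 CPM (SD, n = 3) in freshwater exponential, 33.0 ± 2.63 in freshwater stationary, 38.8 ± 12.6 in marine exponential libraries and 35.1 ± 0.70 in marine stationary ones. It fell by 0.85 with salt in the exponential phase (adjusted p = 0.0225) and by 1.08 between the freshwater phases (adjusted p = 0.0105), calls lost in 3 and 1 of 12 fits without 1 library. The gene named after the 78 kDa intermediate chain, DN2109_c0_g1, was at 297, 299 and 314 CPM in freshwater exponential, 174, 210 and 213 in freshwater stationary, 154, 157.4 and 155 in marine exponential libraries and 137, 141 and 164 in marine stationary ones. Its freshwater exponential libraries lay above all others and did not overlap them. The changes of -0.96 ± 0.11 with salt (adjusted p = 0.00013) and -0.61 between the freshwater phases (adjusted p = 0.00414) held in all 12 fits, and the second also with stems summed.

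The axonemal light chain DNAL4 (DN2514_c0_g1) had the largest phase effect of the genes called in freshwater. It was at 4.57, 3.14 and 4.32 CPM in freshwater exponential, 61.5, 82.5 and 38.7 in freshwater stationary, 13.1, 12.5 and 10.3 in marine exponential libraries and 11.7, 12.7 and 12.6 in marine stationary ones. Every freshwater stationary library was above every other, and the freshwater exponential ones were the lowest. The rise in freshwater was 3.92 ± 0.30 on the log2 scale (adjusted p = 2.4e-05), the change with salt 1.58 ± 0.28 in the exponential (adjusted p = 0.00235) and -2.30 ± 0.28 in the stationary phase (adjusted p = 0.000226), and the interaction -3.88 ± 0.39 (adjusted p = 0.000265). All 4 calls held without any 1 library, and the rise in freshwater also with stems summed (adjusted p = 0.00848). The same assembled gene carried a transporter domain on another reading frame in the annotation report.

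Of the inner arm, which shapes the beat, the heavy chain 1-alpha of the I1 complex (DN1404_c0_g2) was at 30.4 ± 0.923, 40.4 ± 2.23, 54.8 ± 1.68 and 46.7 ± 1.04 CPM (SD, n = 3) in freshwater exponential, freshwater stationary, marine exponential and marine stationary libraries. The 4 groups did not overlap. It was higher with salt by 0.85 ± 0.10 in the exponential phase (adjusted p = 0.000173), a call lost in 2 of 12 fits, while the rise in freshwater of 0.41 (adjusted p = 0.024) and the interaction of -0.64 ± 0.14 (adjusted p = 0.0197) were each lost in 11. Summed over its component, the salt effect was -0.12, the change in freshwater -0.13 and the interaction -0.18, none of them called. The other 7 tested dynein chains lay at or below 5.87 CPM in every library and passed no test.

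Outer dynein arm protein 1, a part of the docking complex that holds the outer arm on the axoneme, was matched by 2 genes of 1 assembly component. DN2194_c0_g4 was at 183 ± 34.9 CPM (SD, n = 3) in freshwater exponential, 363 ± 92.4 in freshwater stationary, 230 ± 14.2 in marine exponential libraries and 209 ± 81.5 in marine stationary ones and passed no test. DN2194_c0_g1 was at 42.3 ± 0.236, 88.9 ± 23.5, 65.0 ± 10.5 and 56.8 ± 8.16 CPM in the same order. Its rise in freshwater was 1.07 ± 0.20 (adjusted p = 0.00569), its change with salt in the stationary phase -0.65 (adjusted p = 0.0375) and its interaction -1.27 ± 0.28 (adjusted p = 0.0213), and these calls were lost in 8, 11 and 10 of 12 fits without 1 library. Reads of 2 genes of 1 component can be split between them, and over the component none of the 3 was called, with values of 0.64, -0.58 and -0.64.

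The dynein regulatory complex protein DRC11 (DN2871_c0_g4), an axonemal protein with an ATPase domain, showed the largest salt effect. It was at 3.27, 2.73 and 3.46 CPM in freshwater exponential, 12.5, 23.5 and 15.4 in freshwater stationary, 402, 404 and 396 in marine exponential libraries and 386, 391 and 304 in marine stationary ones. Each marine library was above each freshwater one, and the freshwater stationary libraries were above the exponential ones. The change with salt was 6.99 ± 0.27 on the log2 scale in the exponential phase (adjusted p = 2.51e-07) and 4.40 ± 0.23 in the stationary phase (adjusted p = 1.82e-06), and the authors' deposited table lists 6.89 and 3.99. The rise in freshwater was 2.44 ± 0.23 (adjusted p = 8.49e-05) and the interaction -2.59 ± 0.30 (adjusted p = 0.000662), and in marine medium the phase effect was -0.15 (adjusted p = 1). The 2 salt effects and the rise in freshwater held with stems summed, at adjusted p = 0.00117, 0.00153 and 0.0144. Summed over the component, the rise was 1.44 (adjusted p = 0.00114) and the interaction -1.37 (adjusted p = 0.0147). The annotation report records AAA ATPase and IQ domains for this gene and a methyltransferase domain on another reading frame.

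**Figure D4:**
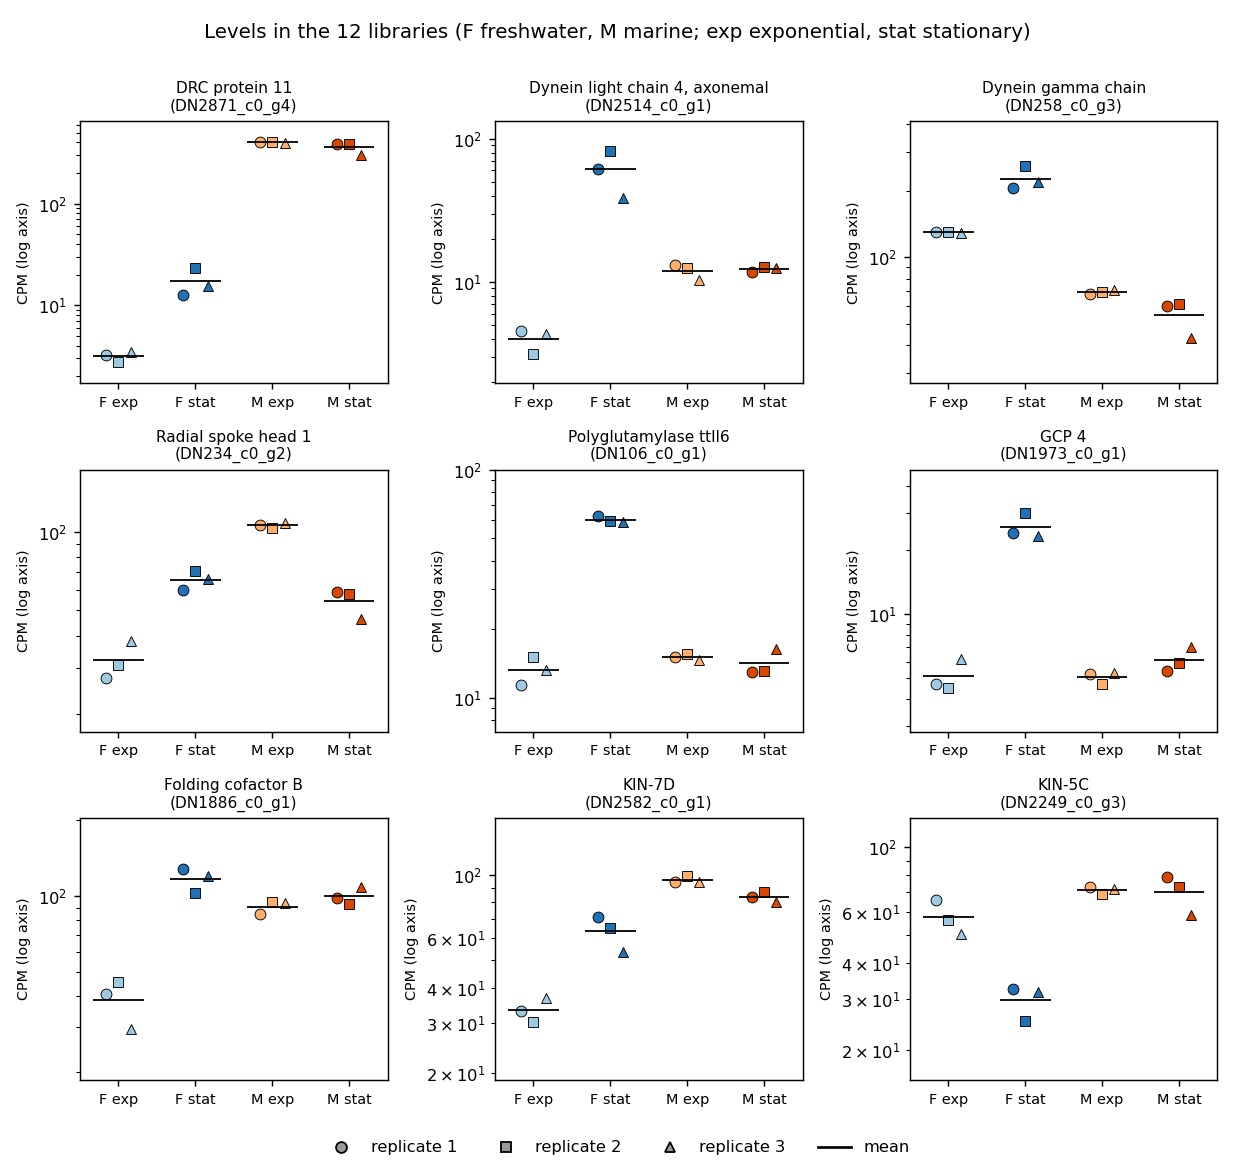
CPM per library (log axis) for 9 genes in the 4 groups, with 1 point per replicate and a bar at the mean. DRC11 is at 2.73 to 23.5 CPM in freshwater and 304 to 404 CPM in marine medium, DNAL4, TTLL6 and GCP4 stand high in the freshwater stationary libraries, and RSPH1 is highest in the marine exponential ones.

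Intraflagellar transport was represented by 3 subunits of complex B, which carries cargo towards the tip. All 3 were higher with salt in the exponential phase, where 20.1% of all tested genes were called. IFT88 (DN2480_c0_g3) was at 21.1 ± 3.08, 12.7 ± 2.82, 40.8 ± 0.835 and 39.4 ± 13.8 CPM (SD, n = 3) in freshwater exponential, freshwater stationary, marine exponential and marine stationary libraries, a change with salt of 0.95 ± 0.27 (adjusted p = 0.0327) and 1.63 ± 0.28 (adjusted p = 0.00213) in the exponential and stationary phase. The first was lost in 11 of 12 fits without 1 library and the second in 0. IFT56 (DN1445_c0_g1) was at 15.6 ± 4.15, 20.6 ± 3.32, 30.8 ± 3.74 and 27.4 ± 2.00 CPM and 0.98 ± 0.22 higher with salt in the exponential phase (adjusted p = 0.00931), lost in 7 of 12. IFT52 (DN428_c0_g6) was low, at 0.537 ± 0.333, 1.17 ± 0.684, 5.55 ± 1.32 and 6.87 ± 2.29 CPM, with salt effects of 3.34 ± 0.80 (adjusted p = 0.0142) and 2.55 ± 0.76 (adjusted p = 0.0359), lost in 5 and 9 of 12. With components summed, the IFT52 salt effects were -0.45 (not called) and 0.86 (adjusted p = 0.00413), and the IFT88 call in the exponential phase was lost (adjusted p = 0.0565). With stems summed, 0 of the 5 calls in the 3 genes remained. Phase changed none of the 3 past the threshold in either medium.

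RSPH1 (DN234_c0_g2), a protein of the radial spoke head that passes signals to the dynein arms, was at 27.4, 31.0 and 38.2 CPM in freshwater exponential, 60.0, 70.8 and 65.9 in freshwater stationary, 106, 104 and 108 in marine exponential libraries and 58.6, 57.6 and 46.5 in marine stationary ones. The marine exponential libraries were above all others, the freshwater exponential ones below all others, and the stationary groups lay between them without overlapping each other. Its change with salt was 1.72 ± 0.15 in the exponential phase (adjusted p = 2.05e-05) and -0.27 in the stationary phase (adjusted p = 0.161), with an interaction of -2.0 ± 0.20 (adjusted p = 0.000291). Between phases it rose by 1.03 ± 0.14 in freshwater (adjusted p = 0.00108, lost in 2 of 12 fits) and fell by 0.97 in marine medium (adjusted p = 0.0107, lost in 8 of 12). The salt effect in the exponential phase held with stems summed (adjusted p = 0.0369) but not with components summed, where it was 1.0 (adjusted p = 0.0729). Over the component the interaction was -1.28 (adjusted p = 0.184), the rise in freshwater 0.96 (adjusted p = 0.114) and the change in marine medium -0.32, so none of the 4 calls remained. A glycosyl hydrolase domain was recorded for it on another reading frame.

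The other axonemal proteins changed in different directions. CFAP57 (DN1023_c0_g1), which takes part in placing inner arm dyneins, was at 102 ± 19.3, 119 ± 21.7, 63.2 ± 7.54 and 56.8 ± 7.28 CPM (SD, n = 3) in freshwater exponential, freshwater stationary, marine exponential and marine stationary libraries. With salt it fell by 0.69 in the exponential (adjusted p = 0.0233, lost in 2 of 12 fits) and by 1.06 in the stationary phase (adjusted p = 0.0023, lost in 0). CFAP157 (DN3890_c0_g1) was at 0.178, 1.02, 6.80 and 11.2 CPM in the same order and higher with salt by 5.15 ± 0.92 (adjusted p = 0.00276, lost in 0) and 3.44 ± 0.83 (adjusted p = 0.0147, lost in 5). Sperm flagellar protein 1 (DN2977_c0_g2), a microtubule-bundling protein, was at 8.85, 1.24 and 14.2 CPM in freshwater stationary and 1.02 to 1.65 CPM in marine stationary ones, and its change of -2.50 (adjusted p = 0.0297) was lost in 11 of 12 and was -1.58 with components summed (adjusted p = 0.108). CFAP20 (DN3910_c0_g1), CFAP58 (DN2919_c0_g1), the centriolar protein POC1A (DN696_c0_g1) and centriole proteome protein 16 (DN2070_c0_g1) passed no test, with group means of 20.7 to 27.9, 10.5 to 12.4, 17.5 to 25.1 and 6.87 to 9.02 CPM.

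The 18 kinesins, motors that mostly move along microtubules in spindles, cell plates and transport, fell into sets with different orders of the groups. Of 17 tested, 5 were higher and 0 lower with salt in the exponential phase, and 3 were higher and 6 lower in the stationary phase. Between phases, 3 rose and 1 fell in freshwater, and 0 rose and 4 fell in marine medium, where 11 had an unadjusted p under 0.05. These calls are 29.4%, 52.9%, 23.5% and 23.5% of the kinesins, beside 20.1%, 26.3%, 10.9% and 1.63% of all tested genes. The 11 are 64.7%, beside 12.3% of all. With stems summed, 1, 0, 0 and 0 kinesins were called, beside 1.72%, 3.36%, 1.72% and 0% of all genes. Their summed level was 512 ± 23.7, 601 ± 44.8, 781 ± 11.7 and 619 ± 103 CPM in freshwater exponential, freshwater stationary, marine exponential and marine stationary libraries (SD, n = 3), and KIN-14E was the most abundant of them in each group.

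KIN-14E (DN2318_c0_g4), known in land plants as a calmodulin-binding kinesin, was at 214, 224 and 234 CPM in freshwater exponential, 369, 339 and 326 in freshwater stationary, 393, 416 and 389 in marine exponential libraries and 261, 257 and 406 in marine stationary ones. Marine stationary replicate 3 stood apart from the other two of its group and within the range of the marine exponential libraries. The change with salt was 0.84 in the exponential phase (adjusted p = 0.00452), the rise in freshwater 0.62 (adjusted p = 0.0335) and the interaction -1.0 ± 0.23 (adjusted p = 0.025), lost in 4, 9 and 11 of 12 fits without 1 library. Summed over the component they were 0.37, 0.16 and -0.49, and none was called.

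KIN-7D (DN2582_c0_g1), of the land plant kinesin-7 family, was at 33.2, 30.3 and 36.9 CPM in freshwater exponential, 71.2, 65.1 and 53.4 in freshwater stationary, 94.4, 98.8 and 93.8 in marine exponential libraries and 83.2, 86.6 and 80.0 in marine stationary ones. The 4 groups did not overlap. It was higher with salt by 1.52 ± 0.13 in the exponential (adjusted p = 1.74e-05) and by 0.40 in the stationary phase (adjusted p = 0.0395), rose by 0.92 in freshwater (adjusted p = 0.000874) and had an interaction of -1.12 ± 0.18 (adjusted p = 0.00342). The salt effect in the exponential phase and the rise in freshwater held in all 12 fits without 1 library, the salt effect in the stationary phase was lost in 7 and the interaction in 6. With stems summed the salt effect in the exponential phase held (adjusted p = 0.0305). Summed over the component, which also holds KIN-14F, it was 0.78 (adjusted p = 0.000321) and the interaction -0.63 (adjusted p = 0.026), while the salt effect in the stationary phase, 0.15, and the rise, 0.35 (adjusted p = 0.0562), were not called.

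KIN-5C (DN2249_c0_g3), of the kinesin-5 family that slides spindle microtubules apart, went the other way in freshwater. It was at 65.6, 56.1 and 50.1 CPM in freshwater exponential, 32.5, 25.2 and 31.6 in freshwater stationary, 72.9, 68.7 and 71.8 in marine exponential libraries and 78.8, 73.1 and 58.4 in marine stationary ones. The freshwater stationary libraries were below all others. It fell by 0.94 between the freshwater phases (adjusted p = 0.00282) and was 1.23 ± 0.16 higher with salt in the stationary phase (adjusted p = 0.000323), both held in all 12 fits. Its interaction of 0.92 ± 0.22 (adjusted p = 0.0293), the only positive one called, was lost in 6 and with components summed (adjusted p = 0.0731).

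Of the less abundant kinesins, KIN-4C (DN1574_c0_g1) had group means of 4.77, 10.2, 15.1 and 15.5 CPM in freshwater exponential, freshwater stationary, marine exponential and marine stationary libraries and was 1.65 ± 0.26 higher with salt in the exponential phase (adjusted p = 0.00123, lost in 2 of 12 fits). KIN-4A (DN630_c1_g1) had means of 30.8, 49.7, 69.6 and 63.9 CPM, a change with salt of 1.18 in the exponential phase (adjusted p = 0.00615, lost in 6). The 85 kDa subunit of kinesin-II (DN1799_c0_g1), the motor of outward intraflagellar transport, had means of 17.0, 25.4, 29.0 and 33.9 CPM and a change of 0.77 (adjusted p = 0.015, lost in 8), or 0.33 over its component (adjusted p = 0.165). The 95 kDa subunit (DN3401_c1_g1) had means of 8.88, 8.0, 5.39 and 2.24 CPM and a change of -1.84 in the stationary phase (adjusted p = 0.0169, lost in 7). KIF13B (DN3320_c0_g2), a transport kinesin of animals, was at 3.52 to 5.58 CPM in freshwater stationary and at 20.9, 20.9 and 12.4 CPM in marine stationary ones, 1.98 ± 0.35 higher with salt (adjusted p = 0.00244, lost in 0), or 1.01 over its component (adjusted p = 0.0672).

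A set of low kinesins was nearly absent from the marine stationary libraries. KIN-14F (DN2582_c0_g3), of the kinesin-14 family that moves to the minus end, was at 13.5, 11.2 and 10.4 CPM in freshwater exponential, 4.00, 1.98 and 11.2 in freshwater stationary, 6.82, 7.77 and 7.69 in marine exponential libraries and 0.343, 0.402 and 0.427 in marine stationary ones. KIN-7I (DN1770_c0_g1) was at 14.8, 10.9 and 13.5 CPM, 4.24, 0.618 and 12.4 CPM, 7.21, 7.85 and 7.18 CPM, and 0.137, 0.335 and 0.342 CPM in the same order. In both, all 3 marine stationary libraries were below all 9 others, and freshwater stationary replicate 2 was the lowest and replicate 3 the highest of its group.

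The changes of KIN-14F with salt in the stationary phase, -3.83 ± 0.64 (adjusted p = 0.00197, lost in 0 of 12 fits), and of KIN-7I, -4.36 ± 0.92 (adjusted p = 0.00764, lost in 1), rest on few counts in the marine stationary group, where fitted fold changes depend on the small number of reads. Between the marine phases KIN-14F fell by 4.21 (adjusted p = 0.013, lost in 6 of 12) and KIN-7I fell by 4.72 (adjusted p = 0.0374, lost in 10), and the interaction of KIN-14F was -3.18 ± 0.83 (adjusted p = 0.0456, lost in 11). KIN-14F shares a component with KIN-7D, and summed over it the change with salt in the stationary phase was 0.15 and that between the marine phases -0.28, neither called, and the interaction -0.63. The fall of KIN-7I between the marine phases was not called with components summed (adjusted p = 0.0522), although KIN-7I is alone in its component.

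KIN-12F (DN2318_c0_g3), of a family that acts at the dividing plane of land plants, was at 21.7, 15.6 and 16.7 CPM in freshwater exponential, 7.28, 2.47 and 20.1 in freshwater stationary, 14.9, 14.8 and 14 in marine exponential libraries and 1.65, 1.81 and 1.71 in marine stationary ones. A kinesin heavy chain (DN5372_c0_g1) was at 10.7, 4.09 and 8.35 CPM, 3.64, 0.618 and 4.74 CPM, 5.23, 7.29 and 6.08 CPM, and 0.343, 0.335 and 0.512 CPM in the same order. The marine stationary libraries were again below the others in both genes, and freshwater stationary replicate 2 below the other two of its group. KIN-12F fell by 3.07 between the marine phases (adjusted p = 0.0392) and by 2.53 with salt in the stationary phase (adjusted p = 0.014), lost in 10 and 4 of 12 fits. Summed over its component, which it shares with KIN-14E, these were -0.33 (adjusted p = 0.35) and -0.11 (adjusted p = 0.561). The heavy chain fell by 3.93 (adjusted p = 0.0457) and by 2.88 (adjusted p = 0.025), lost in 11 and 10. Its fall between the marine phases was not called with components summed (adjusted p = 0.0651), although it is alone in its component. KIN-12C (DN13730_c0_g1) fell by 2.86 with salt in the stationary phase (adjusted p = 0.041, lost in 11), and both KIN-14M genes (DN6010_c0_g1 and DN8568_c0_g2), with freshwater exponential levels of 13.2 to 21.3 CPM and marine stationary levels of 0.201 to 1.88 CPM, passed no test.

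**Figure D5:**
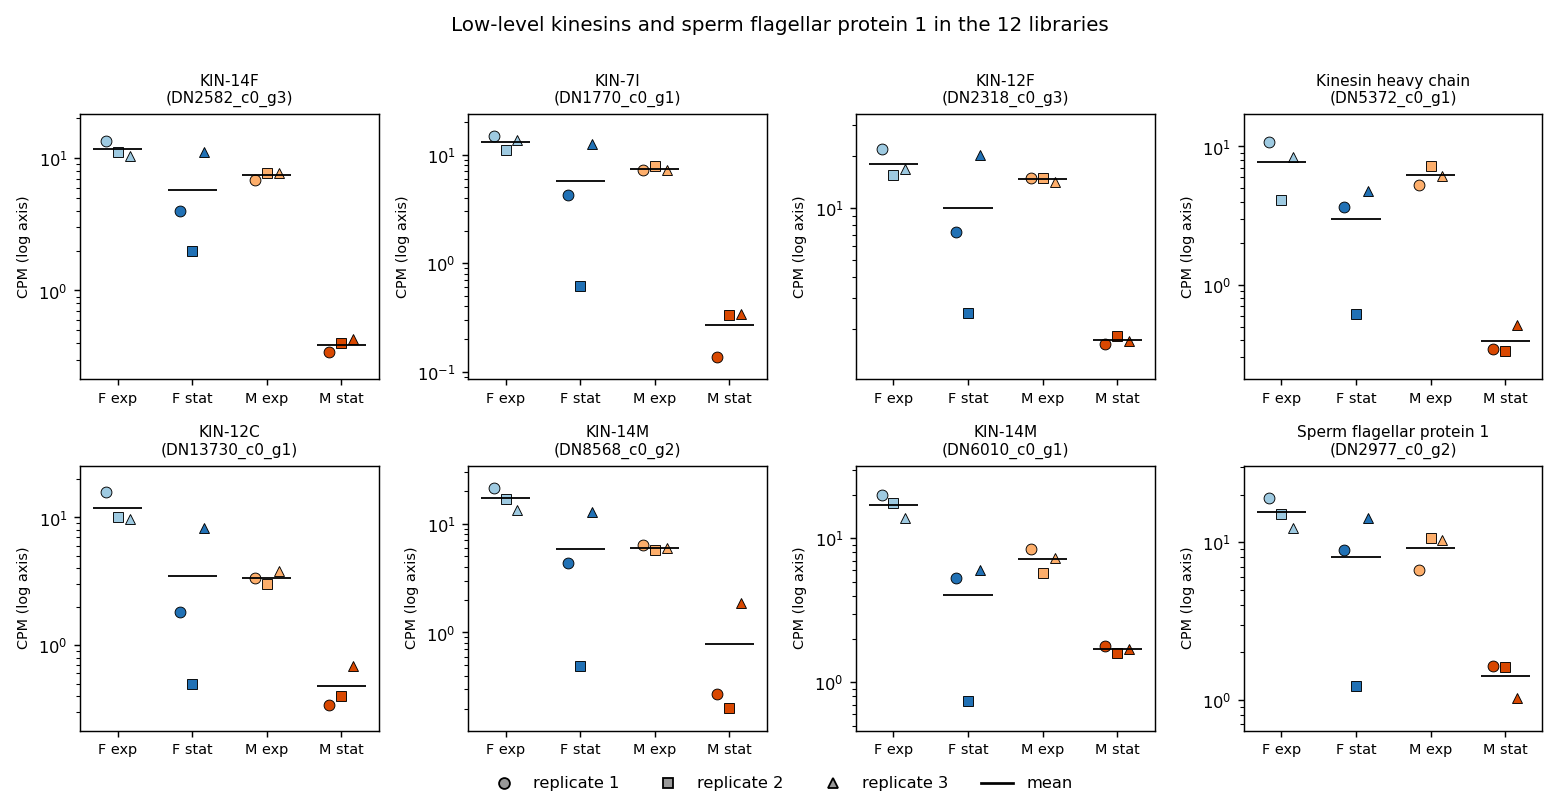
CPM per library (log axis) for 7 low kinesins and sperm flagellar protein 1 in the 4 groups, with 1 point per replicate and a bar at the mean. In most panels the marine stationary points lie lowest, as in KIN-7I at 0.137 to 0.342 CPM, and freshwater stationary replicate 2 lies below replicates 1 and 3.

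Alpha- and beta-tubulin are the building blocks of every microtubule. The alpha chain DN517_c0_g1 was at 303, 308 and 282 CPM in freshwater exponential, 593, 422 and 500 in freshwater stationary, 375, 369 and 350 in marine exponential libraries and 296, 292 and 447 in marine stationary ones. The beta chain DN3237_c0_g1 was at 247, 246 and 234 CPM, 563, 389 and 483 CPM, 201, 193 and 192 CPM, and 179, 178 and 336 CPM in the same order. In both genes all freshwater stationary libraries were above the freshwater exponential ones, and marine stationary replicate 3 was far above replicates 1 and 2.

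In freshwater the alpha chain rose by 0.76 (adjusted p = 0.0184) and the beta chain by 0.98 ± 0.23 (adjusted p = 0.0213), each lost in 8 of 12 fits without 1 library. The alpha chain's call was also lost with components summed, at 0.50 (adjusted p = 0.0694), although it is alone in its component. With salt in the stationary phase the alpha chain fell by 0.55 (adjusted p = 0.0421, lost in 10) and the beta chain by 1.05 (adjusted p = 0.00969, lost in 1). Between the marine phases the groups overlapped in both genes and neither passed the test. Gamma-tubulin, which starts new microtubules, was matched by 2 genes of 1 component, DN167_c0_g1 with group means of 16.8 to 32.5 CPM and no call, and DN167_c0_g2 with means of 1.46, 4.45, 6.4 and 10.7 CPM in freshwater exponential, freshwater stationary, marine exponential and marine stationary libraries. The latter was 2.12 higher with salt in the exponential phase (adjusted p = 0.00733) and rose by 1.6 in freshwater (adjusted p = 0.0437), lost in 6 and 12 of 12 fits and, at 0.28 and -0.07, with components summed.

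Proteins that fold, modify or anchor tubulin held several of the clearest changes. TTLL6 (DN106_c0_g1), which adds glutamates to tubulin in cilia, was at 11.4, 15.1 and 13.2 CPM in freshwater exponential, 62.6, 59.8 and 59.0 in freshwater stationary, 15.1, 15.5 and 14.7 in marine exponential libraries and 13.0, 13.1 and 16.3 in marine stationary ones. The freshwater stationary libraries stood above all others, whose 9 values ranged from 11.4 to 16.3 CPM. It rose by 2.19 ± 0.16 in freshwater (adjusted p = 2.22e-05), and with salt in the stationary phase changed by -2.09 ± 0.16 (adjusted p = 1.44e-05), with an interaction of -2.28 ± 0.23 (adjusted p = 0.00025). All 3 held without any 1 library, and the rise and the salt effect also with stems summed (adjusted p = 0.0197 and 0.0257). Summed over the component, the rise was 0.89 (adjusted p = 0.00536) and the salt effect -0.74 (adjusted p = 0.00874), and the interaction of -0.81 was not called (adjusted p = 0.0707). In the annotation report this gene also carried BAH, cupin and nucleotidyltransferase domains on other frames.

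GCP4 (DN1973_c0_g1), a component of the gamma-tubulin ring that starts microtubules, had the same order at a lower level. It was at 4.71, 4.50 and 6.19 CPM in freshwater exponential, 24.1, 29.8 and 23.3 in freshwater stationary, 5.23, 4.70 and 5.32 in marine exponential libraries and 5.42, 5.90 and 7.0 in marine stationary ones. Again only the freshwater stationary libraries stood apart, and no other domain was recorded for it. It rose by 2.32 ± 0.28 in freshwater (adjusted p = 0.000392) and changed by -2.07 ± 0.27 with salt in the stationary phase (adjusted p = 0.000427), both held in all 12 fits. The interaction of -2.06 ± 0.38 (adjusted p = 0.00822) was lost in 9, and with stems summed 0 of the 3 calls remained. Over the component the salt effect was -1.13 (adjusted p = 0.0233) and the interaction -1.17 (adjusted p = 0.171).

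Other components of the ring moved less. One gene of component 2 (DN1899_c1_g2) had means of 18.0, 21.7, 27.8 and 19.9 CPM in freshwater exponential, freshwater stationary, marine exponential and marine stationary libraries and a change of 0.62 with salt in the exponential phase (adjusted p = 0.0332, lost in 11 of 12 fits), or 0.29 over its component (adjusted p = 0.235). The other (DN1899_c1_g1) and component 3 (DN351_c4_g1) passed no test.

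The folding cofactors also differed from each other. TBCB (DN1886_c0_g1), which binds alpha-tubulin, was at 40.6, 45.6 and 29.7 CPM in freshwater exponential, 128, 103 and 120 in freshwater stationary, 84.5, 94.2 and 93.7 in marine exponential libraries and 98.3, 92.6 and 109 in marine stationary ones. The freshwater exponential libraries were below all others, and the other 3 groups overlapped in part. It rose by 1.6 ± 0.16 in freshwater (adjusted p = 0.000134), changed by 1.23 ± 0.16 with salt in the exponential phase (adjusted p = 0.00033) and had an interaction of -1.46 ± 0.22 (adjusted p = 0.00296, lost in 4 of 12 fits). Its E-value of 5.54e-11 was the nearest to the limit of the rule.

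TBCC (DN906_c0_g1), which releases the folded dimer, was lower with salt in both phases. It was at 42.6, 53.1 and 54.6 CPM in freshwater exponential, 44.3, 39.0 and 47.7 in freshwater stationary, 17.8, 18.4 and 17.7 in marine exponential libraries and 24.0, 24.6 and 14.9 in marine stationary ones. Every marine library was below every freshwater one, and the phases overlapped within each medium. The change was -1.48 ± 0.20 in the exponential phase (adjusted p = 0.000473, lost in 0 of 12 fits) and -1.05 ± 0.20 in the stationary phase (adjusted p = 0.00427, lost in 1). TBCD (DN2913_c0_g1) had means of 19.4, 25.1, 30.4 and 27.7 CPM in the order of groups used above and a change of 0.64 with salt in the exponential phase (adjusted p = 0.0176, lost in 11), or 0.40 over its component (adjusted p = 0.153).

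Over the tested genes, the groups did not overlap in 42 of 61 for salt in the exponential phase, 33 for salt in the stationary phase, 33 for phase in freshwater and 23 for phase in marine medium, against 33.9%, 44.9%, 28.6% and 21.4% of all tested genes. The authors' deposited table of their own comparisons rests on the same libraries under another normalization. It called 20 of the 23 genes called here for salt in the exponential phase, 24 of 25 in the stationary phase and 14 of 15 for the interaction, all in the same direction. Its own calls among the genes were 15 higher and 5 lower, 6 and 26, and 0 and 21 in the same order. The share of all genes called in that table was not counted, so these numbers are a description. Each gene called here for salt in the stationary phase is listed at a lower value there. DRC11 is at 3.99 against 4.40 and TBCC at -1.45 against -1.05. KIN-7D, called 0.40 higher with salt in the stationary phase here, is listed there at -0.006.

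Genes of related machinery that the names did not catch were counted from lists of name patterns, which also caught other products. In these counts the share called among all tested genes is 20.1% for salt in the exponential phase, 26.3% for salt in the stationary phase and 7.17% for the interaction. With stems summed those shares are 1.72%, 3.36% and 0.107%. Of 19 tested genes of mitosis, 3 were higher and 2 lower with salt in the exponential phase (26.3%), and 1 and 3 in the stationary phase (21.1%), with 1 call in each when stems were summed. A myosin pattern caught 11 tested genes, among them motors of actin but also light chain kinases, a regulatory light chain and a tropomyosin. With salt, 5 were higher and 1 lower in the exponential phase (54.5%) and 1 and 3 in the stationary phase (36.4%). There was 1 call in each when stems were summed. The lower call in the exponential phase was the kinase DN3272_c0_g1, and the higher one in the stationary phase the kinase DN4340_c0_g1. The kinases DN3272_c0_g1 and DN1776_c0_g1 were among the 3 lower in the stationary phase. In 5 of these genes (45.5%), among them the kinase DN1776_c0_g1, the salt effect was lower in the stationary phase by the interaction, 0 with stems summed. Of 22 tested genes caught by a pattern for actin and its partners, 4 and 2 were higher and lower with salt in the exponential phase (27.3%). In the stationary phase they were 2 and 2 (18.2%), with 1 call in each phase when stems were summed. The pattern also caught chromatin regulators, an actin-histidine N-methyltransferase and an adenylate-forming reductase. The lower calls were actin-related protein 4 (DN3813_c0_g1) in both phases, the methyltransferase (DN4056_c0_g1) in the exponential and the reductase (DN4731_c0_g1) in the stationary phase. Of 14 tested chaperonin and prefoldin subunits, which fold actin and tubulin, 1 and 2 were called in the exponential (21.4%) and 1 and 3 in the stationary phase (28.6%), 0 in either with stems summed. For salt in each phase, the shares of the mitosis, actin and chaperonin lists lie near those of all tested genes. For phase in freshwater they were 21.1%, 18.2% and 7.14%, beside 10.9%. For phase in marine medium they were 5.26%, 0% and 0%, beside 1.63%, and for the interaction 5.26%, 13.6% and 7.14%, beside 7.17%. The 3 katanin and spastin genes, which sever microtubules, and the caltractin gene (DN4842_c0_g1), a basal body calcium-binding protein, had 0 calls by edgeR, 2 of the former with an unadjusted p under 0.05 for salt in the exponential phase. Genes of the BBSome, a coat that moves membrane proteins in cilia, numbered 0.

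Among the lists were also 5 genes caught by a NIMA pattern, 4 of them kinases of a family that acts on cilia and mitosis and 1 a NIMA-interacting prolyl isomerase, of which 4 rose and 1 fell between the freshwater phases, where 10.9% of all tested genes were called. With stems summed 2 of the 5 were called, beside 1.72% of all genes. The following 4 genes were chosen after their values were seen. A Nek7 kinase gene (DN89_c5_g1) had means of 16.8, 150, 0.545 and 0.647 CPM in freshwater exponential, freshwater stationary, marine exponential and marine stationary libraries and a salt effect of -7.84 in the stationary phase (adjusted p = 9.2e-05). A septin-3 gene (DN1749_c0_g1), of a family of filament-forming GTPases, had means of 0.781, 3.29, 88.8 and 31.1 CPM and salt effects of 6.81 in the exponential (adjusted p = 3.7e-07) and 3.24 in the stationary phase. Of 3 tested microtubule-associated proteins, an EB family gene (DN4634_c0_g2), which tracks growing microtubule ends, was 0.77 higher with salt in the exponential phase (adjusted p = 0.044) and a CLIP-associated protein gene (DN14_c0_g1) changed by -1.23 in the stationary phase (adjusted p = 0.0012).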

How the data were processed

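Poly(A) RNA of 12 samples was sequenced as 100 bp paired reads from unstranded libraries, per the labels' protocols. The authors assembled the reads with Trinity without a reference genome and deposited expected counts per assembled gene, made with RSEM 1.3.2 and Bowtie, per the submitters' processing notes. The authors' deposited comparison table holds a mean signal per group after SVCD normalization, log2 fold changes and adjusted p-values from DESeq2 1.20.0, per the file headers and the submitters' processing notes. Protein names, E-values and the percent similarity of each match come from the authors' Blast2GO table, per the file headers, and Pfam domains from their Trinotate report. Because counting did not use strand, overlapping and antisense transcripts cannot be told apart, and genes of 1 assembly component can split reads.

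Expected counts were rounded to whole numbers and 31491 genes that passed edgeR's filterByExpr were tested with edgeR 4.0.16 (TMM scaling, quasi-likelihood F-test, 4 group means in 1 fit of 12 libraries). P-values were adjusted by Benjamini-Hochberg over all 31491 genes, and a call is an adjusted p under 0.05. CPM values are of the rounded expected counts over each library's effective size. That size is the library's total over the tested genes multiplied by its TMM factor. Genes named are, in each role, the 2 most abundant, in each pairwise comparison the 8 with the smallest p in each direction among those called whose mean log2 CPM was 1 or more, and for the interaction the 6 smallest. Other genes are named as examples of their role. The scripts were tested on simulated counts. The alternatives were DESeq2 1.42.0, median-ratio scaling, no filter, only the 2 groups compared, a replicate block, each library left out, stems summed, components summed and narrower choices of genes. The members and lists were chosen with earlier results of these data known. No sequences were used here.

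The labels give every group replicates 1, 2 and 3. Same-numbered libraries had correlations of -0.0532 to 0.0355 between their deviations from the group means, so the numbers were not taken to pair the samples. The software was R 4.3.3, limma 3.58.1, Python 3.11.15 and matplotlib 3.10.9.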

Additional observations from a re-analysis of the deposited data

Results flagged for a closer look

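The salt effect differed between the stationary and the exponential phase, by the interaction test of edgeR at an adjusted p under 0.05, in 15 of the 61 tested genes, and the values below are the stationary minus the exponential salt effect on the log2 scale. Among axonemal genes the difference was -3.88 for the light chain DNAL4, -2.59 for DRC11, -2.0 for RSPH1, -1.49 for the gamma chain DN185_c1_g1, -1.27 for outer dynein arm protein 1 (DN2194_c0_g1), -1.15 for the gamma chain DN258_c0_g3, -0.73 for the beta chain DN141_c0_g1 and -0.64 for the inner arm heavy chain DN1404_c0_g2. Among tubulin partners it was -2.28 for TTLL6, -2.06 for GCP4 and -1.46 for TBCB. Among kinesins it was -3.18 for KIN-14F, -1.12 for KIN-7D, -1.0 for KIN-14E and 0.92 for KIN-5C. Over all tested genes the median difference was -0.30, and over those with 15 counts in both media -0.13. With libraries of 1 stem summed, none of the 15 passed the threshold by edgeR and 11 kept an unadjusted p under 0.05.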

How the results depend on the processing

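The numbers of genes called moved with several choices. With libraries of 1 stem summed, the counts were 3, 3, 5, 0 and 0 for salt in the exponential phase, salt in the stationary phase, phase in freshwater, phase in marine medium and the interaction, against 23, 25, 18, 6 and 15. Of all genes tested in that fit, 1.72%, 3.36%, 1.72%, 0% and 0.107% were called. Leaving out 1 library gave 11 to 23, 13 to 23, 9 to 20, 0 to 7 and 5 to 17 in the same order. Those fits called 8.56% to 15.6%, 8.89% to 14.9%, 5.18% to 9.07%, 0.2% to 2.54% and 2.39% to 7.05% of all genes tested. Without marine stationary replicate 3 they were 23, 23, 20, 4 and 17, beside 15.6%, 14.9%, 9.07%, 2.54% and 7.05% of all genes. Summed over assembly components the counts were 14 for salt in the exponential phase, 11 for phase in freshwater, 1 for phase in marine medium and 8 for the interaction. The share called over all components is not given here. With no filter they were 14 and 16 for salt in the exponential and stationary phase, 3 for phase in marine medium and 9 for the interaction. Beside these stand 7.6%, 7.71%, 0.487% and 2.66% of all genes. With only the 2 groups compared, salt in the stationary phase gave 16, beside 41.0% of all genes tested in that fit. For phase in marine medium DESeq2 gave 11, median-ratio scaling 2 and the replicate block 2, where they called 8.8%, 1.04% and 1.11% of all tested genes. An E-value limit of 1e-30 left 12, 15 and 9 for the first 3 comparisons and 8 for the interaction, and best matches from green plants and algae only left 15 and 14 for salt, both from fewer genes. Other causes were not tested.

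The replicate block gave 19, 17, 14, 2 and 13 calls, and since the numbers do not pair the libraries no weight is put on it. Of 51 pairs of named gene and comparison, DESeq2 kept every call and direction, and stems summed kept 11 calls and every direction. Only the sum over components turned a direction, to -0.116 for DN1404_c0_g2 and 0.377 for DN258_c0_g3 with salt in the exponential phase and to 0.154 for DN2582_c0_g3 in the stationary phase. Median-ratio scaling moved the median of all genes by 0.11 for phase in marine medium and by 0.154 for the interaction, relative to TMM. Because of the TMM scaling, 1 CPM does not stand for the same number of reads in each library. Genes below that level rest on few reads.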

Other observations

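In a list of 19 genes of mitosis, 2 genes, chosen after their values were seen, showed the library order of the low kinesins, and the other 17 did not. Of the latter, the kinetochore gene Spc25 (DN2037_c1_g1) had means of 33.7, 32.9, 73.3 and 61.8 CPM and the condensin gene SMC4 (DN116_c0_g1) 314, 344, 477 and 394 CPM in freshwater exponential, freshwater stationary, marine exponential and marine stationary libraries. The kinetochore gene NDC80 (DN38235_c0_g1) was at 40.6, 29.7 and 37.6 CPM in freshwater exponential, 6.55, 1.36 and 19.0 in freshwater stationary, 11.5, 13.4 and 11.6 in marine exponential and 1.10, 1.14 and 0.854 in marine stationary libraries. The condensin gene SMC2 (DN5700_c0_g1) was at 23.4, 25.6 and 20.4 CPM, 9.34, 4.57 and 19.6 CPM, 14.3, 15.2 and 13.5 CPM, and 3.98, 4.09 and 2.73 CPM in the same order. In both, freshwater stationary replicate 2 was the lowest and replicate 3 the highest of its group, and the marine stationary libraries were below every other library of the series.

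The 3 glucose-6-phosphate 1-epimerase genes caught through a species name had group means of 56.5, 230, 110 and 112 CPM (DN429_c0_g1), 159, 90.5, 104 and 93.0 CPM (DN361_c0_g1) and 71.9, 23.7, 27.7 and 28.5 CPM (DN1157_c2_g1) in freshwater exponential, freshwater stationary, marine exponential and marine stationary libraries.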
